A study of Mus musculus with 6 samples.

Results

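The cytosolic ribosomal protein genes were examined in MLO-Y4, a mouse line that resembles osteocytes, the bone cells that lie inside the mineralized matrix. Members were taken by gene symbol alone, as rows named Rpl or Rps with a number, plus Rplp0, Rplp1, Rplp2 and Rpsa, without symbols marked as pseudogenes and without the S6 kinases. The rule gave 89 of 39174 rows. They comprised 31 proteins of the small subunit, 42 of the large subunit, 3 of the stalk, 12 paralogues or pseudogene-type copies and 1 row whose symbol and identifier disagree. That row is labelled Rpl24, but its identifier, ENSMUSG00000022601, belongs to Zbtb11, a zinc finger gene, in the GENCODE M21 annotation. It is left out of the 76 core genes described below. The row that carries the identifier of the true gene, ENSMUSG00000098274, is spelled RPL24 and was missed by the rule.

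Each cytosolic ribosome carries a single copy of nearly every one of these proteins, with the acidic stalk proteins P1 and P2 present as dimers on P0. Cells therefore make the proteins in matched amounts, and an unassembled ribosomal protein is usually degraded. The mRNAs are among the most abundant of growing cells. Most begin with a C followed by an unbroken run of pyrimidines, the terminal oligopyrimidine (TOP) motif, through which mTORC1 and the RNA-binding protein LARP1 regulate their translation.

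In the 3 flow cultures, medium oscillated over the cells for 2 h (shear stress 10 dyn/cm2), and lysis followed 2 h later, in new medium. The 3 non-flow control cultures were sham treated in parallel. All cultures were grown on collagen-coated glass, and replicates of each group were collected on separate days. The comparison asks which transcripts differed after fluid flow, an in vitro model of the mechanical loading that osteocytes sense. Levels are given in FPKM, which are scaled by transcript length and by library size, so they can be set side by side between genes. Because RNA was pooled from whole cultures, fewer cells of a type and less RNA per cell cannot be told apart.

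The 9 start regions below show how far the TOP rule can be read in the RefSeq sequences (build GRCm38.p6). Each line gives 30 bases, 10 before the annotated start and 20 from it, 5′ to 3′ on the gene's strand, with the longest run of C and T in capitals. They were picked from genes whose values are described below and include a pair without a run of 8 bases.
Rpl13a: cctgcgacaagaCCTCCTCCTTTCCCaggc
Rpl39: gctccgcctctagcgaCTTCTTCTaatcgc
Rps27: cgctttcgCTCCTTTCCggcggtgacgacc
Rps15a: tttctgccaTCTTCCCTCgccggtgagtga
Rpl22l1: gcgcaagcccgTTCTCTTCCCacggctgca
Rplp2: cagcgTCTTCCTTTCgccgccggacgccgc
Rps6: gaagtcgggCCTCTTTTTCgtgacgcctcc
Rpl5: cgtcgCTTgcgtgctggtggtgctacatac
Rplp0: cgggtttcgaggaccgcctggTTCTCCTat

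The Rpl13a window lies at chr7:45128726-45128755 on the minus strand, and that of Rpl39 at chrX:37085203-37085232 on the minus strand. The windows of Rps27 (chr3:90213629-90213658), Rps15a (chr7:118116128-118116157) and Rps6 (chr4:86857348-86857377) are also on the minus strand. Those of Rpl22l1 (chr3:28805498-28805527), Rplp2 (chr7:141447641-141447670), Rpl5 (chr5:107900518-107900547) and Rplp0 (chr5:115559457-115559486) are on the plus strand. The Rpl13a run was 14 bases long, the Rpl39 run 8 and the Rps27 run 9, while the longest run was 3 bases in Rpl5 and 7 in Rplp0. A RefSeq start was matched for 56 core genes, and 20 of them (35.7%) had a run of at least 8 C or T in the window, against 11.03% of 16522 protein-coding genes. The motif searched was any unbroken run of C and T on the gene's strand, at any place in the window. Of the 69 mitochondrial ribosomal protein genes with a start, 6 (8.70%) had such a run. A C stood at the annotated start of 35.7% of core genes and 14.0% of protein-coding genes. Annotated starts often lie some bases away from the start a cell uses, so a window without a run says only that those letters are not in it.

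In the core genes, flow libraries 1 and 2 stood apart from the other libraries, which touches the results below. Estimated depth was 11020000, 5750000 and 19230000 reads in flow libraries 1 to 3, against 17900000 to 19010000 in the controls. Across the 76 core genes, log2 levels of flow library 3 correlated with those of the controls at r = 0.992 to 0.999, while flow library 1 correlated with the controls at 0.930 to 0.949 and flow library 2 at 0.956 to 0.966. Flow libraries 1 and 2 correlated with each other at 0.985. Over all tested genes, flow library 3 was again closest to the controls, at 0.918 to 0.925. Flow library 1 correlated with the controls at 0.902 to 0.914 and flow library 2 at 0.896 to 0.907. There, however, flow libraries 1 and 2 were no closer to each other (0.905). In flow library 3, 69 of the 76 genes were within 10% of the control mean, against 25 in flow library 1 and 30 in flow library 2. The median coefficient of variation was 9.95% within flow and 3.84% within controls, and it was larger in flow for 63 genes. Beside the log2 differences that lead each group, the value with flow library 3 alone is therefore given. Of the osteocyte markers, Gja1 (connexin 43), Pdpn and Cd44 were abundant, while Sost, Mepe and Fgf23 were listed at 0 in all 6 libraries. Summed leukocyte markers lay at 7.87 to 10.8 FPKM in flow and 8.77 to 10.9 FPKM in controls, with Ptprc and Csf1r under 1 FPKM in all libraries. Of 6 osteoblast markers, 5 were tested and all were lower in flow on average, with a median log2 difference of -0.26. Their sum was 209 to 276 FPKM in flow and 271 to 316 FPKM in controls, with overlap, and Sp7 was under 1 FPKM in all libraries. Col1a2 had 96.2, 92.0 and 97.4 FPKM in flow and 123, 111 and 109 FPKM in controls, without overlap (unadjusted p = 0.0222, adjusted p = 0.559, limma). The part of this shift in the results below was not tested.

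All core genes were abundant. Their means over the 6 libraries had a median of 636 FPKM, and 27 of the 76 were among the 100 highest rows of the table and 49 among the 200 highest. Although the proteins are assembled in equal numbers, the mRNA levels spanned 19.8-fold, and 54 of 76 lay within a factor of 2 of the median. Small-subunit genes had a median of 769 FPKM and large-subunit genes one of 506 FPKM.

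**Figure D1:**
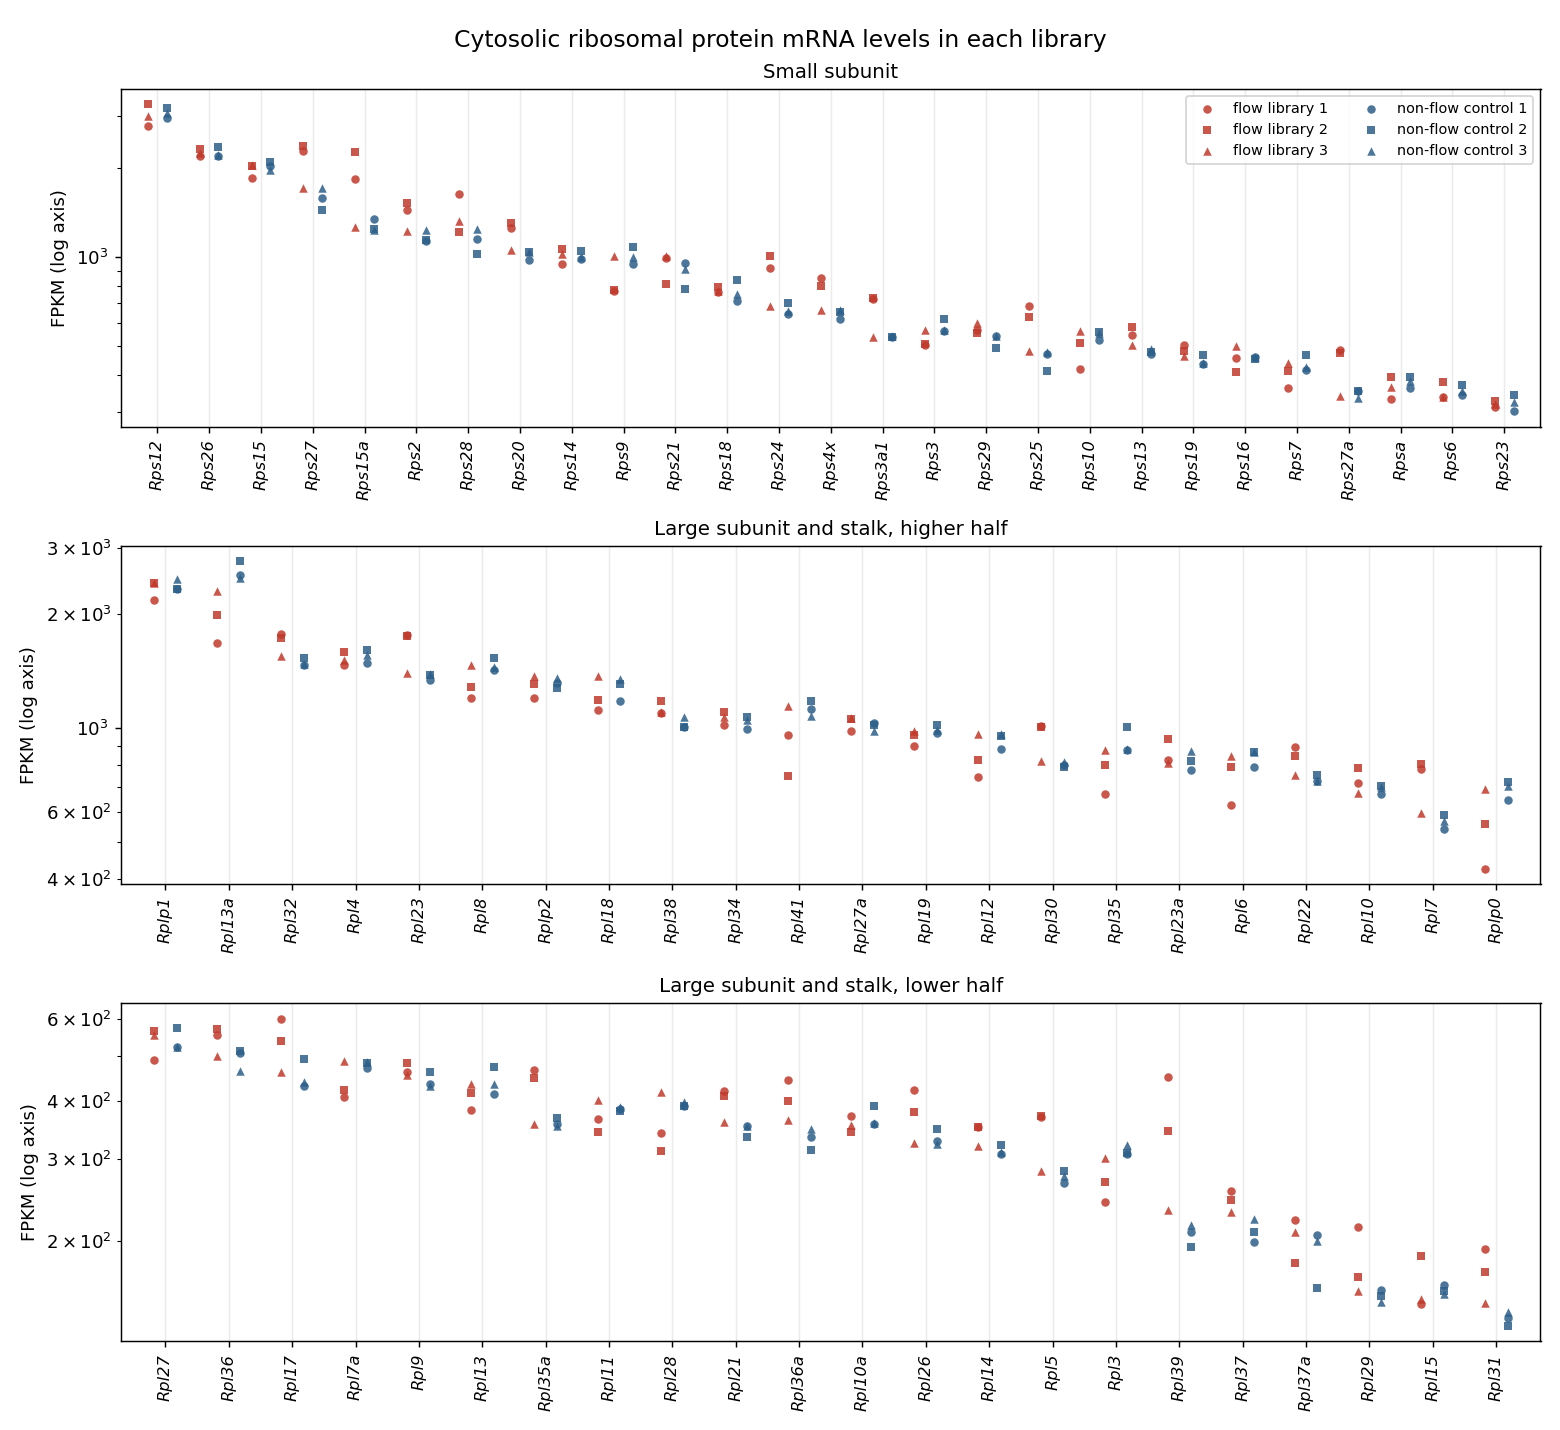
FPKM (log axis) of core ribosomal protein genes, with the 3 flow libraries in red left of the 3 non-flow controls in blue, sorted by mean within the small subunit and within the large subunit and stalk. Means ran between 153 FPKM for Rpl31 and 3039 FPKM for Rps12, and red circles and squares (flow libraries 1 and 2) often sat away from the red triangle and the blue points.

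The 5 highest were Rps12, Rplp1, Rpl13a, Rps26 and Rps15. Rps12, a small-subunit protein of the beak, had 2770.4, 3281 and 2998 FPKM in flow libraries and 2941, 3180 and 3065 FPKM in controls. Rps26, which lies at the mRNA exit, had 2194, 2312 and 2249 FPKM in flow libraries and 2200.1, 2352 and 2209.9 FPKM in controls. Rps15, near the decoding site, had 1856, 2031 and 2044 FPKM in flow and 2033, 2093 and 1975 FPKM in controls. For these 3 genes the groups overlapped, with log2 differences of -0.02 ± 0.10, -0.0011 ± 0.08 and -0.04 ± 0.08 (SE, n = 3 per group). The lowest core gene was Rpl31, a protein at the rim of the peptide exit tunnel, with 193, 171 and 147 FPKM in flow and 137, 131 and 141 FPKM in controls.

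Of the 89 members, 82 had a mean of at least 1 FPKM and were tested with limma on log2(FPKM + 1) across all 11957 genes that passed this filter. No member was called at an adjusted p under 0.05, where 0.0167% of all genes tested (2 genes) were called. The smallest adjusted p of a member was 0.559 (limma, Benjamini-Hochberg). At an unadjusted p under 0.05, 9 members were higher in flow, against 3.7% of all genes, and 1 was lower, against 4.82%. As a share of the 82, that is 10.98% higher and 1.22% lower. All 3 flow values lay above all controls in 18 members (21.95%), where 7.12% of all genes did so, and below them in 2 members (2.44%), where 8% did so. In the other deposited table, flow lay above in 16 of 81 members (6.65% of all genes) and below in 1 (5.91%), and 8 of the 18 above and 0 of the 2 below held in both tables. The median log2 difference was 0.08 over the members, which ran between -0.39 (Rpl13a) and 0.68 (Rpl39), and -0.01 over all genes. It was positive in 48 of the 82 (58.5%), against 48.3% of all genes. The median over the members moved with the scaling and with removal of a length trend. With equal sums per library it was 0.037 (44 positive, 38 negative), but this scaling lowered the median of all genes as well. With the trend on transcript length removed, the member median was -0.00038 (40 positive, 41 negative). That fit held only protein-coding genes and took the length of 1 chosen transcript per gene.

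The counts at an unadjusted p under 0.05 moved with the libraries used. With flow library 3 alone against the controls, the median difference was 0.03, with 55 of 82 positive. That fit takes its spread from the controls only, so no count is given for it. With flow libraries 1 and 2 alone, 28 members were higher and 12 lower at an unadjusted p under 0.05, where 13.04% and 12.9% of all genes were. No member was called in that fit, with a smallest adjusted p of 0.0706 (limma). Leaving out any 1 of flow library 1, flow library 2, control 1 or control 2 gave 0 members at an unadjusted p under 0.05, and leaving out control 3 gave 1. Over all genes the shares fell too, to 1.52% to 1.93% higher and 2.44% to 3.28% lower.

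The small subunit binds the mRNA and decodes it. Of its 31 genes, 3 (9.68%) had an unadjusted p under 0.05, all higher in flow (Rps27 and Rps25 among them). Over all genes tested, 3.7% were higher and 4.82% lower. In 8 small-subunit genes (25.8%) all flow values lay above the controls and in 0 below, where 7.12% and 8% of all genes did so. The median log2 difference was 0.11. Rps27, a zinc finger protein, had 2284, 2371 and 1709 FPKM in flow and 1587, 1439.7 and 1708 FPKM in controls. Its lowest flow value and its highest control were almost equal, and the difference of 0.42 ± 0.15 on the log2 scale was 0.12 with flow library 3 alone. Rps25, which some viral and cellular internal ribosome entry sites need, had 685, 629 and 482 FPKM in flow and 470.2, 414 and 478 FPKM in controls (0.39 ± 0.15, and 0.09 with flow library 3 alone). Here too the third flow library sat just above the highest control. Rps4x, Rps13, Rps20 and Rps29 were also without overlap, with log2 differences of 0.13 to 0.25. In the other deposited table the groups of Rps13 and Rps29 overlapped, while those of Rps27, Rps25, Rps4x and Rps20 did not.

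Rps15a, named after its values were seen because it had the largest log2 difference of the small subunit, had 1839, 2272 and 1264 FPKM in flow and 1342, 1248 and 1239.7 FPKM in controls (0.45 ± 0.21, and -0.01 with flow library 3 alone). Its groups overlapped, with flow library 3 below control 1. The gene with the smallest p among small-subunit genes lower in flow was Rps9, a protein at the mRNA entry channel. It had 769, 773 and 1009 FPKM in flow and 947, 1082 and 1000.4 FPKM in controls (-0.26 ± 0.13), and the difference was 0.0012 with flow library 3 alone.

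Several small-subunit proteins have roles outside translation or carry regulatory sites. Rps6, the substrate of S6 kinase, had 338, 379 and 339 FPKM in flow and 344, 372 and 353 FPKM in controls, a log2 difference of -0.02 ± 0.09. Rpsa, also known as the laminin receptor, had 333, 396 and 366 FPKM in flow and 362, 394 and 382 FPKM in controls (-0.06 ± 0.09). In both genes the groups overlapped. Rps27a, made as a fusion with ubiquitin, had 487, 474 and 341 FPKM in flow and 354, 354 and 336 FPKM in controls (0.30 ± 0.15, and -0.0278 with flow library 3 alone). Its first and second flow libraries stood above every control, and the third lay within them.

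The large subunit forms the peptide bond and holds the exit tunnel. Of its 42 core genes, 5 (11.9%) were higher (Rpl39, Rpl31, Rpl36a, Rpl7 and Rpl37) and 1 (2.38%) lower (Rpl13a) at an unadjusted p under 0.05. Over all genes tested the shares were 3.7% and 4.82%. All flow values lay above the controls in 10 (23.8%) and below in 2 (4.76%), against 7.12% and 8% of all genes. The median log2 difference of the large subunit was 0.06. Rpl39, a very small protein lining the exit tunnel, had the largest difference of all members, with 449, 345 and 233 FPKM in flow and 209, 194 and 216 FPKM in controls. The log2 difference was 0.68 ± 0.23 (unadjusted p = 0.0260, adjusted p = 0.559, limma), and it was 0.18 with flow library 3 alone. The 3 flow values spanned a wider range than the gap between the group means.

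Rpl7 had 781, 806 and 598 FPKM in flow and 543, 591 and 570.0 FPKM in controls (0.35 ± 0.13, and 0.07 with flow library 3 alone). Rpl36a, close to the exit site for tRNA, had 444, 399 and 365 FPKM in flow and 334, 313 and 348 FPKM in controls (0.27 ± 0.10, and 0.14 with flow library 3 alone). In both, as in Rpl31 (0.31 ± 0.12, and 0.11 with flow library 3 alone), flow library 3 had the smallest flow value, which was still above all controls. Rpl21, Rpl23, Rpl30, Rpl32 and Rpl38 also had all flow values above all controls, with log2 differences of 0.13 to 0.25. Rpl37, a zinc-binding protein, had 257, 245 and 231 FPKM in flow and 198, 209 and 223 FPKM in controls (0.22 ± 0.09, and 0.14 with flow library 3 alone). In the other deposited table the groups overlapped in Rpl7, Rpl36a, Rpl31, Rpl37, Rpl23, Rpl32 and Rpl38. Flow stayed above all controls there in Rpl39, Rpl21 and Rpl30. Rpl5 and Rpl11 bind 5S rRNA and, when free, the p53 regulator MDM2. Rpl5 had 370.2, 372 and 282 FPKM in flow and 266, 283 and 276 FPKM in controls (0.30 ± 0.13, and 0.04 with flow library 3 alone), with libraries 1 and 2 above all controls. Rpl11 had 366, 343 and 401 FPKM in flow and 383, 381 and 388 FPKM in controls (-0.06 ± 0.09), so the pair did not share a sign.

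Rpl13a, a large-subunit protein whose gene is often used as a reference in RT-qPCR, had 1679, 1992 and 2304 FPKM in flow and 2535, 2759.9 and 2500.1 FPKM in controls. All flow values lay below all controls, and the log2 difference was -0.39 ± 0.13 (unadjusted p = 0.0244, adjusted p = 0.559, limma). With flow library 3 alone it was -0.17. In the other deposited table its groups overlapped, with a difference of -0.37 ± 0.18. Rpl3, which reaches to the peptidyl transferase centre, had 243, 267 and 302 FPKM in flow and 307, 309 and 321 FPKM in controls (-0.21 ± 0.10) and was the other member with no overlap on the low side. Rpl3 also overlapped in the other table, and its difference with flow library 3 alone was -0.05. Rpl35, at the tunnel exit, had 669, 799 and 875 FPKM in flow and 874, 1007 and 880.0 FPKM in controls (-0.24 ± 0.13). Its flow library 3 lay within the controls.

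**Figure D2:**
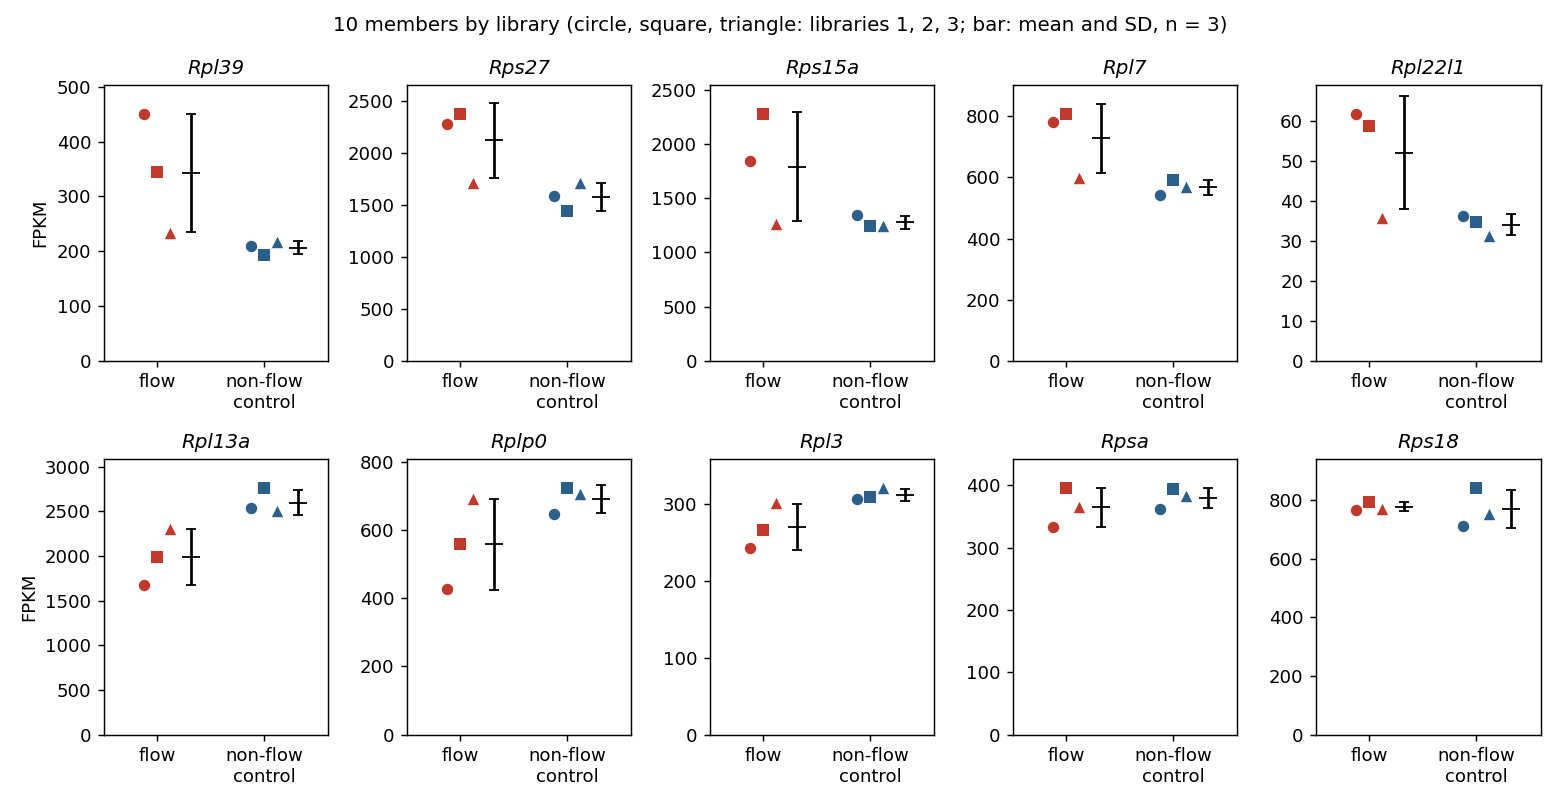
FPKM of 10 ribosomal protein genes in each library, flow left of non-flow control, with circle, square and triangle for libraries 1, 2 and 3 and a bar for the mean and SD (n = 3). In Rpl39, Rps27, Rps15a, Rpl7 and Rpl22l1 the circle and square of flow sat above all controls and in Rpl13a, Rplp0 and Rpl3 below them, while the flow triangle lay nearer the controls.

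The stalk recruits the GTPase elongation factors. Rplp0, its base, had 426, 558 and 692 FPKM in flow and 646, 722 and 705 FPKM in controls (-0.33 ± 0.18, and 0.0034 with flow library 3 alone). The groups overlapped, since flow library 3 lay among the controls. Rplp1 had 2179, 2425 and 2424 FPKM in flow and 2329, 2334 and 2474 FPKM in controls (-0.02 ± 0.09). Rplp2 had 1202, 1308 and 1378 FPKM in flow and 1314, 1277 and 1360.2 FPKM in controls (-0.03 ± 0.09). Summed Rplp1 and Rplp2 mRNA was 7.94, 6.69 and 5.49 times Rplp0 mRNA in flow and 5.64, 4.998 and 5.43 times in controls. The ratio of Rplp1 to Rplp2 was nearly constant, at 1.81 ± 0.05 in flow and 1.81 ± 0.03 in controls (SD, n = 3 each).

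Over whole subunits, small-subunit mRNA summed to 30435, 31604 and 28462 FPKM in flow and 27213, 28027 and 27937 FPKM in controls, without overlap. As a share of all summed FPKM it was 3.80%, 4.11% and 3.96% in flow and 3.56%, 3.79% and 3.91% in controls, and the groups overlapped. Large-subunit mRNA summed to 28648, 29551 and 29127 FPKM in flow and 28170, 29679 and 28910 FPKM in controls, with overlap. The 89 members together made up 7.94%, 8.59% and 8.70% of the summed FPKM in flow and 7.86%, 8.46% and 8.66% in controls. The difference of the group means, 0.084 percentage points, was within the SD of 0.413 points in flow and 0.416 points in controls. This depended on the denominator. Without mitochondrial genes and genes under 200 nt, the members made up 10.9% to 11.2% in flow and 10.3% to 10.7% in controls, without overlap, a difference of 0.542 points. In the other deposited table the difference was -0.081 points.

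Of the 12 paralogues and pseudogene-type copies, 7 were too low to test. Rpl10l and the row labelled Rps4y2, which GENCODE names Rps4l, were listed at 0 in all libraries. Rpl3l, a paralogue known from striated muscle, and Rpl39l, known from testis, reached at most 0.140 and 0.261 FPKM in any library. Rps12l1, Rps12l2 and Rps3a2, all annotated as processed pseudogenes, stayed under 1 FPKM. Rpl10l, known from the male germ line, has as partner Rpl10 on the X chromosome, which had 716, 784 and 674 FPKM in flow and 669, 703 and 701 FPKM in controls (0.07 ± 0.09). Rps4x, the X-linked partner of Rps4l, had 852, 801 and 665 FPKM in flow and 621, 655 and 663 FPKM in controls (0.25 ± 0.11), and its flow values were all above the controls.

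Of the 5 that were tested, Rpl22l1 had an unadjusted p under 0.05. It had 61.7, 58.8 and 35.9 FPKM in flow and 36.4, 34.7 and 31.4 FPKM in controls (0.56 ± 0.22, and 0.07 with flow library 3 alone), and flow library 3 was below control 1. Relative to its partner Rpl22, it was 6.93%, 6.97% and 4.78% in flow and 5.02%, 4.61% and 4.31% in controls. Rps27l, a known p53 target, had 333, 325 and 231 FPKM in flow and 231, 252 and 241 FPKM in controls (0.28 ± 0.16, and -0.06 with flow library 3 alone), and flow library 3 lay within the controls. Rpl36al was near level, with 161, 144 and 152 FPKM in flow and 153, 156 and 151 FPKM in controls (-0.01 ± 0.08). As a share of Rpl36a it was 36.3%, 36.2% and 41.8% in flow and 46.0%, 49.7% and 43.4% in controls, with no overlap, and the flow values of Rpl36a itself lay above its controls. In the other deposited table this separation was absent, with shares of 39.8% to 45.6% in flow and 38.9% to 45.6% in controls, and Rpl36a overlapped there too. Rpl7l1 had 49.8, 53.7 and 46.8 FPKM in flow and 45.3, 49.8 and 41.9 FPKM in controls (0.13 ± 0.10). Rps3a3, a processed pseudogene, averaged 1.52 FPKM over all libraries (0.16 ± 0.29).

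Further ribosomal proteins carry other symbols or spellings and lie outside the rule. The row spelled RPL24 had 555, 579.6 and 473 FPKM in flow and 386, 455 and 462 FPKM in controls, without overlap (0.30 ± 0.12, adjusted p = 0.559, limma). Fau, which encodes S30, had 317, 322 and 369.8 FPKM in flow and 373, 371 and 361 FPKM in controls (-0.14 ± 0.09). Gnb2l1, the older symbol of Rack1, had 1169, 1418 and 1475 FPKM in flow and 1409.6, 1692 and 1484 FPKM in controls (-0.18 ± 0.13). In Fau and Gnb2l1 the groups overlapped. The row labelled Rpl24 had only 10.5, 11.4 and 9.56 FPKM in flow and 10.2, 10.6 and 8.71 FPKM in controls.

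The deviations of flow libraries 1 and 2 were alike gene by gene. Each flow library was set against the control with the adjacent title, on the log2(FPKM + 1) scale. The SD of these differences over the 76 core genes was 0.31, 0.30 and 0.05 for libraries 1, 2 and 3. The difference exceeded 1.2-fold in 33, 29 and 0 genes. Differences in libraries 1 and 2, which share no control, correlated across genes at r = 0.875 (n = 76), and 65 of 76 genes had the same sign in both. Across 10460 protein-coding genes the same r was 0.541. Difference 1 correlated with difference 3 at r = 0.365 (51 of 76 with the same sign) and difference 2 with difference 3 at r = 0.193 (50 of 76), against 0.091 and 0.144 in protein-coding genes. Flow libraries 1 and 2 both lay above all controls in 34 of the 76 and both below in 18. Of all genes tested, 22.8% did so in each direction, so the 18 is near that share and only the 34 exceeds it.

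GC content of the coding sequence moved with these differences. Among the 76 genes it ran between 44.9% (Rpl30) and 61.6% (Rpl36), with a median of 52.8%, close to the 52.7% of tested protein-coding genes. The correlation with the library difference was r = -0.59, -0.58 and 0.04 for libraries 1, 2 and 3, and -0.51, -0.51 and -0.01 over the protein-coding genes. All genes of a comparison share the same libraries and their depth, so these values describe the libraries and carry no p. The slopes over the core genes were -0.47, -0.44 and 0.01 log2 units per 10 percentage points of GC. In the 25 genes of lowest GC, the median difference was 0.39, 0.29 and 0.02, and in the 25 of highest GC it was -0.11, -0.04 and 0.02.

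**Figure D3:**
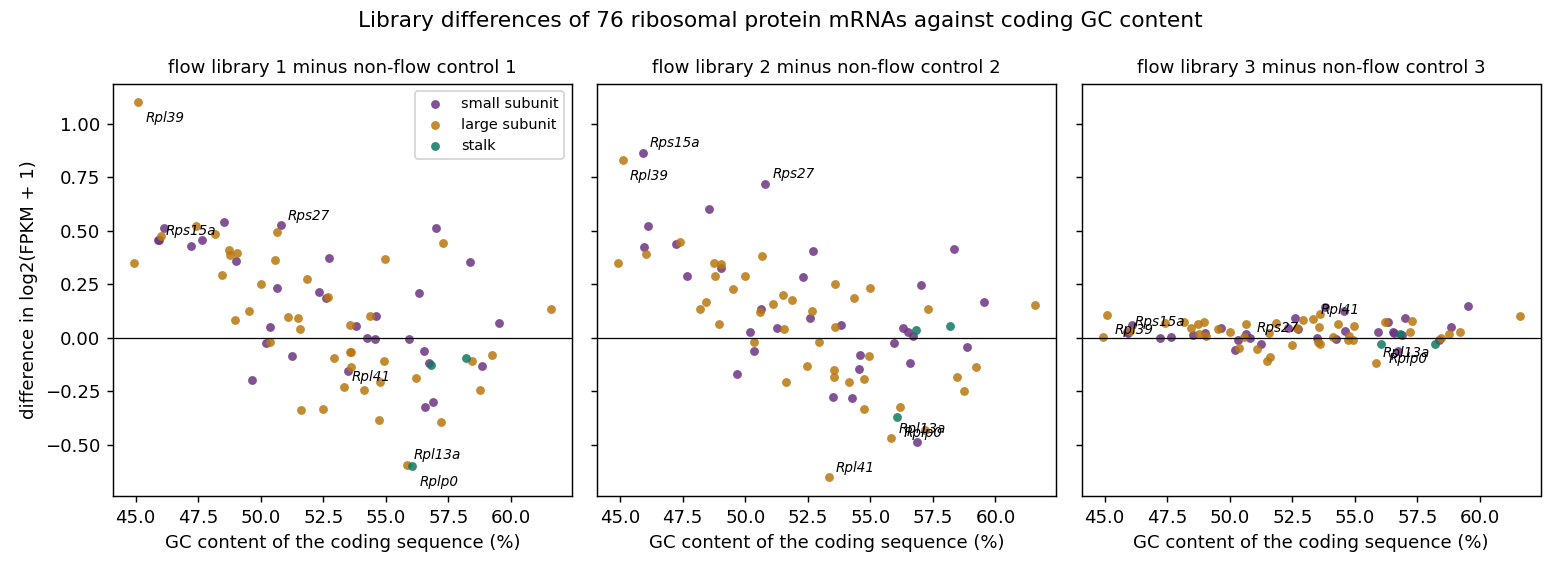
Difference in log2(FPKM + 1), flow minus the non-flow control with the adjacent title, against coding GC content (%) for 76 ribosomal protein genes, 1 panel per library pair and 1 point per gene. Points slope downward in the panels of libraries 1 and 2 (r = -0.59 and -0.58) and lie flat near 0 in that of library 3 (r = 0.04).

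In the limma fit over all 6 libraries, the log2 difference was positive in 21 of the 25 low-GC genes, 15 of the 26 in between and 7 of the 25 high-GC genes. The medians were 0.23, 0.03 and -0.06. The named genes follow this order in part. Rpl39 (45.1% GC), Rps15a (45.9%), Rps24 (46.1%) and Rpl7 (47.4%) stood at the low-GC end with differences of 0.68, 0.45, 0.36 and 0.35, and Rpl13a (55.8%), Rplp0 (56.0%) and Rps9 (56.9%) at the other with -0.39, -0.33 and -0.26. Rps2 (58.4% GC, 0.25) and Rps28 (57.0% GC, 0.28) went the other way. With the GC trend of the transcripts removed within each library, the difference was 0.64 in Rpl39, 0.42 in Rps27, -0.30 in Rpl13a, 0.33 in Rpl22l1 and 0.12 in Rpl5. After that step 15 members were higher and 1 lower at an unadjusted p under 0.05, where 2.93% and 3.87% of the genes in that fit were. That fit held only protein-coding genes, and no member was called in it. Whether GC content or depth accounts for the deviation of libraries 1 and 2 was not tested.

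The genes share features of structure that the symbols did not choose. Their coding sequences were short, with a median of 455 nt and a minimum of 75 nt in Rpl41, against a median of 1350 nt in tested protein-coding genes. Across the core genes, the library differences correlated with log2 coding length at r = -0.28, -0.19 and -0.55, against -0.13, 0.02 and -0.04 over protein-coding genes. The last of the core values rests on differences whose SD was only 0.05. Small nucleolar RNAs, which guide chemical modification of rRNA and are cut from introns, lay within the span and on the strand of 30 of the 76 genes (39.5%), against 2.01% of tested protein-coding genes and 0 of 76 mitochondrial ribosomal protein genes. They numbered 58 in all, with 5 in Rpl4 and 4 in Rpl13a. The core genes lay on 19 chromosomes, with 14 of them on chromosome 7. Rpl13a lies at chr7:45125558-45128761 on the minus strand, Rpl39 at chrX:37082520-37085402 and Rplp0 at chr5:115559467-115563727. All these positions are in mm10.

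Counting such genes from 50-base reads is uncertain because of their many processed copies. A median of 92.3% of all stretches of 50 bases in the coding sequences of the core genes also occurred in transcripts of other genes, and the share was over 90% in 43 genes and under 10% in 3, Rps3 and Rpl8 among them. Rpl8, with 8.73% shared, had 1203, 1285 and 1467 FPKM in flow and 1427, 1529.7 and 1452 FPKM in controls (-0.16 ± 0.10). Rows named as ribosomal protein pseudogenes numbered 222 and summed to 0.306% of the members' FPKM. The highest, Rps13-ps1, had 48.6, 51.8 and 40.1 FPKM in flow and 40.7, 40.7 and 36.2 FPKM in controls. Rplp0-ps1 had 20.5, 16.6 and 32.5 FPKM in flow and 32.5, 34.8 and 33.9 FPKM in controls, with libraries 1 and 2 well below all controls, as in Rplp0. Exons of 6 core genes were covered over more than 20% by genes of the opposite strand (Rpl30, Rpl35, Rpl23a, Rps25, Rpl5 and Rpl31), and reads of such pairs cannot be told apart where strand was not kept. On the same strand, exons of 26 core genes overlapped those of other genes, with 35.4% of the exon bases covered in Rpl13a. Strand cannot separate reads of those overlaps.

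Other genes of translation were set beside the members, from lists given by function. No gene in any of them was called (limma, adjusted p under 0.05). At an unadjusted p under 0.05, 3.7% of all genes tested were higher and 4.82% lower, and the counts below use the same threshold. Among 76 mitochondrial ribosomal protein genes, 3 were higher (3.95%, near the share of all genes) and 0 lower. Their median log2 difference was 0.03. Mrpl33 had 93.4, 100.3 and 63.6 FPKM in flow and 59.0, 61.3 and 53.0 FPKM in controls (0.54 ± 0.18). Among 37 initiation factors and their binding proteins, 0 were higher and 0 lower, with a median of -0.00025. Of 10 genes listed under elongation and release factors, Eef1e1 and Abce1 were higher (20%) and Eef2 lower (10%). The list also holds genes that are not such factors, Eef1e1 and Abce1 among them. Eef2, which moves the ribosome along the mRNA, had 1169, 1300.5 and 1477 FPKM in flow and 1548, 1678 and 1529 FPKM in controls (-0.27 ± 0.11). Eef1a1, whose mRNA is itself of the TOP class, had 5243, 5564 and 5155 FPKM in flow and 4994, 5395 and 5368 FPKM in controls (0.02 ± 0.09).

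In the 18 TOP mRNAs that encode other proteins, 0 were higher and 1 (Eef2, 5.56%) lower, with a median of 0.05. The 41 genes of ribosome assembly and RNA polymerase I had a median of 0.08. Nop58, a protein of box C/D small nucleolar RNPs, was the single one higher (2.44%) at an unadjusted p under 0.05, and none was lower. Of 20 cytosolic aminoacyl-tRNA synthetases, 0 were higher and 3 (Mars, Aars and Vars, 15%) lower. Of 17 genes of mTORC1 and S6 kinase signalling, 16 were tested, none had an unadjusted p under 0.05, and the median was -0.13. Of the 222 pseudogene rows, 23 were tested, with 3 higher and 1 lower and a median of -0.14.

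**Figure D4:**
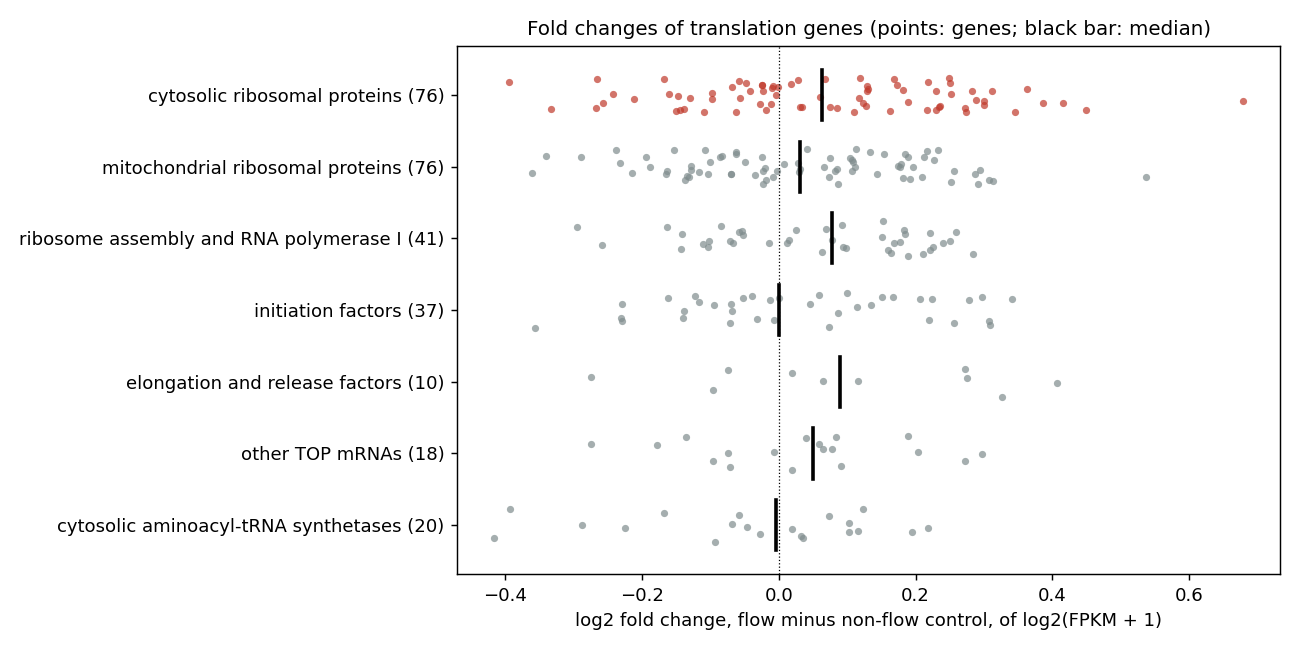
Log2 fold change, flow minus non-flow control, of log2(FPKM + 1) for genes of 7 lists, with 1 point per gene, a black bar for the median and the number of genes in brackets. The cytosolic ribosomal proteins (top, red) span -0.39 to 0.68 around a median of 0.06, and the medians of the other lists lie between -0.0042 and 0.09.

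Several members serve as reference genes in RT-qPCR. Rps18 had 765, 794 and 771 FPKM in flow and 713, 840.3 and 754 FPKM in controls (0.02 ± 0.09). Rpl19 had 899.8, 958 and 982 FPKM in flow and 970.1, 1017 and 988 FPKM in controls (-0.07 ± 0.08). The groups overlapped in both genes. Rpl32 had 1769, 1730.2 and 1549 FPKM in flow and 1465, 1529 and 1477 FPKM in controls (0.17 ± 0.09), all flow values above all controls. In the other deposited table the groups of Rpl32 overlapped. The mean of Rpl13a was 1991 ± 313 FPKM in flow and 2598 ± 141 FPKM in controls, and that of Rplp0 was 558 ± 133 FPKM in flow and 691 ± 40.4 FPKM in controls (SD, n = 3 each). Of 13 common reference genes, Tfrc was higher (7.69%) and Pgk1, Gapdh and Actb lower (23.1%) at an unadjusted p under 0.05. Over all genes tested the shares were 3.7% and 4.82%. Gapdh had 1116, 1143 and 1419 FPKM in flow and 1582, 1503 and 1736 FPKM in controls (-0.40 ± 0.12, adjusted p = 0.559, limma), further from 0 than those of Rps18 and Rpl19, although this contrast between genes was not tested.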

How the data were processed

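RNA from 3 flow and 3 non-flow control cultures was sequenced as 50-cycle single-end reads, per the labels' protocols. The authors deposited FPKM in 2 tables with 1 column per library. Per the submitters' processing notes, the tools were Cufflinks 2.2.1, TopHat2 2.0.9 and CASAVA 1.8.2, with build mm10. How reads with several matches were handled, which annotation was used and whether strand was kept is not given in the sources used here. The table in which every column names a library was tested. In the other, a pair of flow columns could be placed only in the flow group.

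All genes averaging at least 1 FPKM over the 6 libraries entered a limma 3.58.1 fit (R 4.3.3) of log2(FPKM + 1) (eBayes with trend, two-sided, no covariate, Benjamini-Hochberg over all genes, threshold 0.05). A fold change on this scale understates the change of low genes. The fit was checked on simulated data in which both groups had the spread of the controls, so the check does not cover the wider spread within flow. With 3 against 3, an exact permutation test cannot go below p = 0.1, so none was run. A p-value here sets the group difference against the spread of libraries within groups, which holds collection day and depth as well as the cultures. Depth is not stated and was inferred from the regular spacing of low FPKM, where 74.1% to 80.8% of the values used lay within 0.02 of a whole read. Coordinates, coding sequences and small nucleolar RNAs came from GENCODE M21. Coding GC and length are those of 1 chosen transcript per gene.

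Members and lists were chosen with earlier results of these data known. Named members are the 5 highest and 3 lowest tested by mean, the 6 with the smallest p in each direction, and set stalk, 5S, paralogue and reference genes. Rps15a, Rps24, Rps2, Rps28, Rpl8, Rpl37, Rps25, Rpl30 and other genes named for groups that do not overlap were added after their values were seen. Deviations from the group means were correlated between flow and control libraries over all tested genes. The values were 0.043, 0.023 and 0.064 for adjacent titles and -0.068 to 0.027 for other pairs. Each flow library was closest to its adjacent control, but all values were near 0. Over the members the adjacent values were 0.43, 0.10 and -0.10, so whether adjacent titles pair the libraries was left undecided. Some members are counted but not reported by name here. Alternatives covered pseudocount, filters, scaling, GC and length trends, the other table, pairing and each library left out.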

Additional observations from a re-analysis of the deposited data

How the results depend on the processing

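No member was called in any of the 20 other fits run, whose smallest adjusted p for a member was 0.0706 (limma, without flow replicate 3). Over all genes the count of 2 calls became 0 with the GC trend of transcripts or of coding sequences removed, with the length trend removed and with protein-coding genes alone, 4 with no filter on low values and with a pseudocount of 0.1, and 75 with flow library 3 alone. With adjacent titles as a replicate block it was 1, with or without the GC trend removed, and with 1 library left out 9 to 24. All fits with a trend removed held only the 10460 protein-coding genes, as did that with protein-coding genes alone. Of these genes, 0 were called in the main fit, so the 2 called genes were absent from those fits. The counts of 0 therefore do not show what removing a trend did to the 2 calls. The 10 members at an unadjusted p under 0.05 became 16 with the GC trend removed. With the replicate block alone they became 7 (all genes 5.14% higher and 6.60% lower). With the block and the GC trend removed they became 23 (protein-coding genes 5.58% and 7.04%). With no filter they were 5 (all genes 2.83% and 3.93%), and 0 to 40 with 1 library left out. The median difference of 0.080 was 0.037 with equal sums per library, which moved the median of all genes to -0.05, and 0.029 with flow library 3 alone. It was -0.00038 with the length trend removed and 0.040 to 0.095 with 1 library left out. The share of summed FPKM differed by 0.542 percentage points (11.045% in flow, 10.5% in controls) without mitochondrial genes and genes under 200 nt. The share differed by -0.149 to 0.320 points with 1 library left out. The causes of the other shifts were not tested.

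The sign of 33 named members was compared over 654 refits, in 58 of which it changed, and in 28 of these the value moved by more than the main standard error. With flow library 3 alone, Rpl10 came to -0.0342, Rpl11 to 0.0623, Rplp0 to 0.0034, Rplp2 to 0.0651, Rps27a to -0.0278, Rps27l to -0.0606, Rps3a3 to -0.38 and Rps9 to 0.0012. With the GC trend of transcripts removed, with or without the replicate block, Rpl19 came to 0.0548, Rplp1 to 0.16, Rplp2 to 0.10, Rps15 to 0.15 and the row labelled Rpl24 to -0.0731. With that of coding sequences removed, which was tried after the data were seen, as was flow library 3 alone, they came to 0.0111, 0.13, 0.10, 0.12 and -0.0364, Rps26 to 0.11 and Rpsa to 0.0651. In the other deposited table Rpl36al came to 0.18 and Rps3a3 to -0.42, and with the length trend removed Rps18 came to -0.0748.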
